A study of Mus musculus with 42 samples.

Results

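Gsc, Hhex, Otx2, Lhx1 and Hesx1 are 5 genes for homeodomain transcription factors that work in the anterior organiser of the gastrulating embryo. They were followed on all 42 arrays of a mouse embryonic stem cell (ESC) differentiation towards anterior definitive endoderm (ADE). The members were found through the RefSeq accession printed with each array probe, which gave 5 of the 22278 genes with such a probe, and each of the 5 had exactly 1 probe. All cells came from the dual reporter line B6, in which 1 allele of Gsc drives GFP and 1 allele of Hhex drives Redstar, a red fluorescent protein. The untreated series held mESCs in medium with LIF (ESC), unsorted d2 cells, and cells sorted by the reporters on later days (G for Gsc-GFP, H for Hhex-Redstar): d3 G- and G+, d4 G- and G+, d5 G-, Glow and Ghigh, and d6 G+H- and G+H+. The EPZ6438 series held d6 cells under 3 regimens: DMSO throughout (Control), DMSO on the ESCs followed by 2.5 µM EPZ6438 during differentiation (ADE_EPZ), and 2.5 µM EPZ6438 on the ESCs followed by DMSO during differentiation (ES_EPZ). Each of these 14 groups had 3 arrays.

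During gastrulation, Nodal signalling in the anterior primitive streak switches on the genes of the organiser, whose derivatives include the definitive endoderm and the axial mesendoderm, and the anterior part of this tissue secretes Wnt, BMP and Nodal antagonists that protect the forming head. Gsc, a paired-class homeodomain repressor, and Lhx1, a LIM homeodomain activator that works with Ldb cofactors, are early organiser genes. Otx2, a bicoid-class homeodomain factor, is active in the epiblast before it becomes restricted to anterior tissue, while Hhex marks the ADE and later the liver and thyroid primordia. Hesx1, a paired-class repressor that recruits Tle corepressors, is found in anterior endoderm and then in the anterior neural plate and pituitary primordium. EPZ6438 blocks EZH2, the enzyme of Polycomb repressive complex PRC2 that methylates histone H3.

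The model set limits to what the values can show. All groups descend from 1 reporter line with 1 altered allele each of Gsc and Hhex, so a difference in Gsc between G gates, or in Hhex between H gates, is a check of the sort and is no finding. In the targeting scheme GFP takes the place of the initial Gsc exon, with the later exons left in place on the tagged allele, and Redstar is inserted in the initial Hhex exon. Which allele the array probes read is not known here. The sample labels name no sort for the EPZ6438 series, while the methods speak of sorted ADE cells for the arrays in general, so whether its d6 cells were sorted is not known here. In any of these bulk samples a smaller share of expressing cells and less RNA per cell cannot be told apart. That series filled 3 slides of its own and was scanned with another version of the scanner software, so series and slide cannot be told apart and the 2 series were compared only within themselves. Untreated arrays had between 25887 and 40398 probes well above background, and arrays of the EPZ6438 series between 24459 and 34789. Among markers of the labelled cells, Sox17, an endoderm factor, was not well above background on any ESC array (5.02 ± 0.11, SD, n = 3, on the log2 intensity scale used throughout) and stood at 12.60 ± 0.41 in d6 G+H+, while the naive pluripotency factor Esrrb went from 14.53 ± 0.39 to 8.31 ± 1.09.

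The promoter sequences differ sharply among the 5 genes in CpG content, which is shown because CpG-rich promoters are the usual sites of PRC2 in ESCs. Each sequence is the coding strand of a window from 250 bases before to 50 bases after the RefSeq start (build GRCm38.p6), in lower case with every CpG in capitals. The Gsc window is chr12:104473187-104473486 (minus strand), that of Lhx1 is chr11:84525485-84525784 (minus strand), that of Hhex is chr19:37434591-37434890 (plus strand) and that of Hesx1 is chr14:27000112-27000411 (plus strand).
Gsc: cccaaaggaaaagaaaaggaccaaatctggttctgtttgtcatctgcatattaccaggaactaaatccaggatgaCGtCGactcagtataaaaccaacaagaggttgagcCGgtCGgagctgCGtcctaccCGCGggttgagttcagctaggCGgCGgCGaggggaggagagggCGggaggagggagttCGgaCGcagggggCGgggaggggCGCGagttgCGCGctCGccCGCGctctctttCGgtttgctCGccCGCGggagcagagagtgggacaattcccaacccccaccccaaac
Lhx1: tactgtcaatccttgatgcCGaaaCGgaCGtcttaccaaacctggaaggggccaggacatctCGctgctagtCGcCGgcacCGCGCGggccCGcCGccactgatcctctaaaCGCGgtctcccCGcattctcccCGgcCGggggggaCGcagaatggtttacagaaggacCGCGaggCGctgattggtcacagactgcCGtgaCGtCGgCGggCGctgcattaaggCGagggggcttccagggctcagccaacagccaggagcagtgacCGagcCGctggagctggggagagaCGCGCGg
Hhex: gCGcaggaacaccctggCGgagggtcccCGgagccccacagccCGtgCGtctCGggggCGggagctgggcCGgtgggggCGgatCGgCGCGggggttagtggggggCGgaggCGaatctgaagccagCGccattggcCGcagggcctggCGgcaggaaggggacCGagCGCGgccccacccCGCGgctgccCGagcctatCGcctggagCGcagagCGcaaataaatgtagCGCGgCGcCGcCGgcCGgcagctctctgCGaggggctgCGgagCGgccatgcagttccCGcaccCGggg
Hesx1: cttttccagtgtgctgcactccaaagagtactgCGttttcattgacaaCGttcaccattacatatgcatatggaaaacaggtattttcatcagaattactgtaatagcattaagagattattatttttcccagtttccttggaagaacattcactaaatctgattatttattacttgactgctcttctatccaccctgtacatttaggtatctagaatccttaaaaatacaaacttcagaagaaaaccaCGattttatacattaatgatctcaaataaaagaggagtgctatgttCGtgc

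Counted over these 300 bases, Hhex had 37 CpG sites, Lhx1 31 and Gsc 25, against a median of 7 over 32841 RefSeq promoter windows of the same length. Fewer CpG sites were found in 94.4% of all windows for Hhex, in 89.4% for Lhx1 and in 81.6% for Gsc. Hesx1 stood apart with 4 CpG sites, a number that 31.4% of all windows fall below, and with a GC content of 33.7% against 75.7% in Hhex. The 4 annotated start sites of Otx2 held 6, 8, 16 and 11 CpG sites. Of the letters searched on both strands, TAATCC, the core read by Otx and Gsc proteins, was found in 1 of the 8 windows of the 5 genes, at an Otx2 start site, and is held by 7.06% of all windows. TAATTA, the core of many LIM homeodomain factors, was found in 2 windows, both of Otx2, against 5.29% of all windows. TATAAA, the letters of a TATA box, was found in 3 windows, 1 each of Gsc, Otx2 and Hesx1, against 13.6% of all windows. Relative to the start it began at -164 in Gsc, at -192 in Otx2 and, on the other strand, at 4 in Hesx1. Whether any of these works as a TATA box was not tested. The letters TGTTTAC (forkhead), TCACACC (T-box) and AATCCACA (Foxh1) were not in any of the 8 windows, and are held by 3.65%, 3.98% and 0.856% of all windows.

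The 5 genes reached high levels at different times. Lhx1 and Gsc were high by d3 in G+ cells, Hhex at d5 in Ghigh cells and Hesx1 at d6. Otx2 had the highest ESC mean of the 5 genes (10.64). Like Otx2, Hhex and Lhx1 were well above background on all 3 ESC arrays, and all 5 genes had their highest mean at d6. Called here means an adjusted p of at most 0.01 and a log2 difference of at least 1.5 in either direction. Against ESCs, 27 of the 50 pairs of member and population were called, all of them higher, where 6.07% of such pairs were called over all genes. Without Gsc, on which cells were sorted, this was 18 of 40. The comparisons share the ESC arrays and are not independent of each other. By gene, 9 of the 10 populations were called for Gsc, 8 for Lhx1, 5 for Otx2, 3 for Hhex and 2 for Hesx1.

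**Figure D1:**
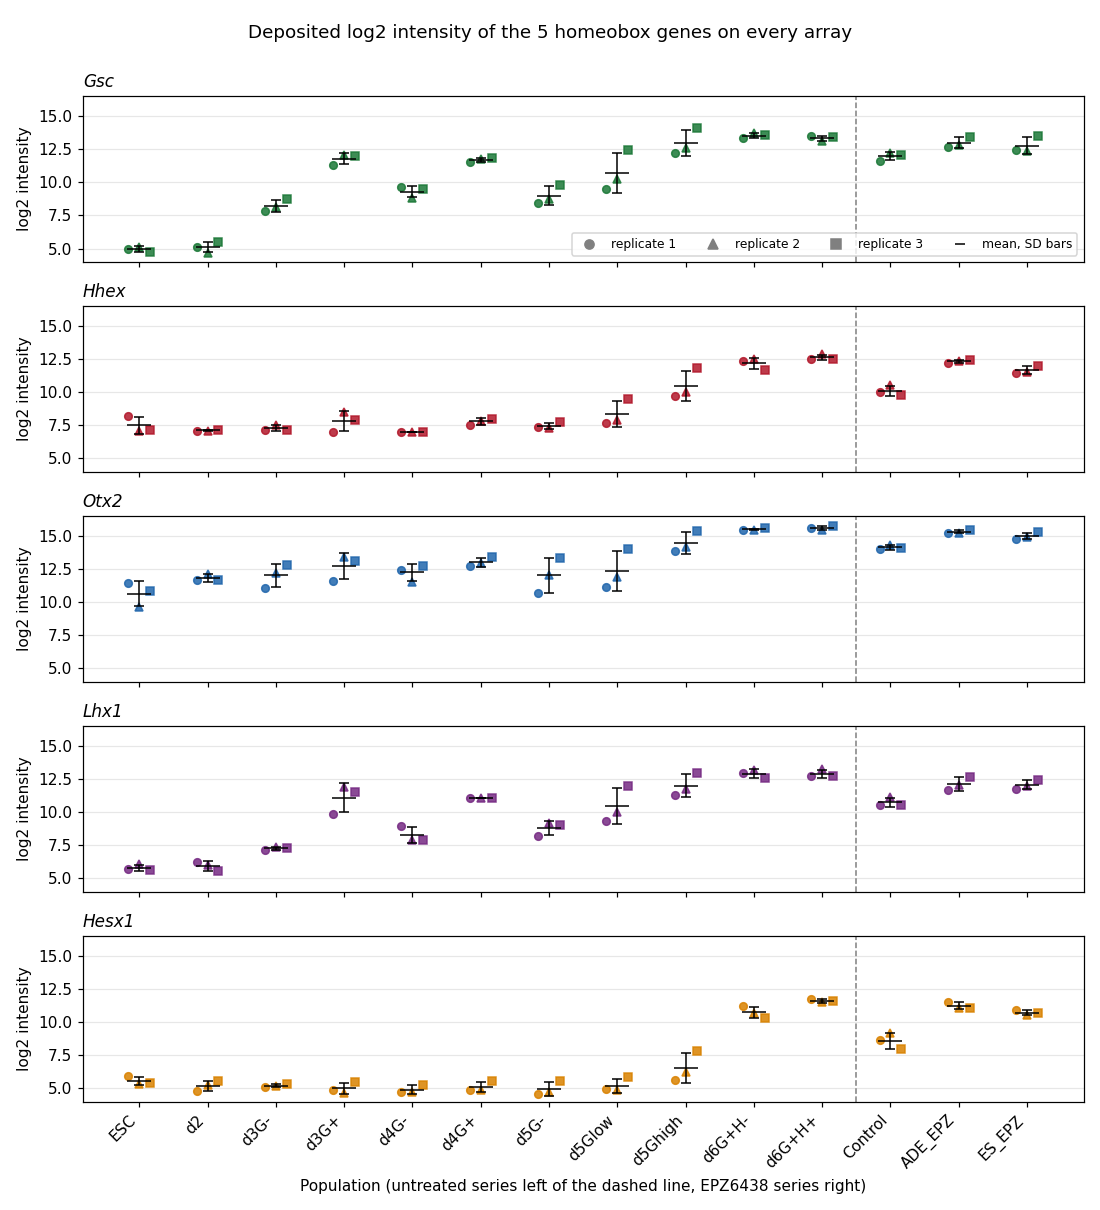
Deposited log2 intensity (vertical axis) of each gene on every array of the 14 populations (horizontal axis); points are arrays, shaped by replicate number, and bars are the mean and SD of 3 arrays. Gsc and Lhx1 are high from d3 G+ on, Hhex from d5 Ghigh on, and Hesx1 stays near 5 until d5 Glow and reaches 11.61 in d6 G+H+.

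Gsc was not well above background on any ESC array, with log2 intensities of 4.99, 5.15 and 4.75, and on 1 of the 3 d2 arrays (5.14, 4.69 and 5.52). The d3 G- cells gave 7.85, 8.10 and 8.74, and the d3 G+ cells 11.28, 12.08 and 11.97. The d3 populations overlapped neither each other nor the earlier groups. Even the G- cells were thus at least 8.97-fold above ESCs (log2 difference 3.27 ± 0.47, SE; adjusted p = 8.56e-06), in a comparison in which 2.32% of genes were called. The G+ cells were at least 105-fold above ESCs (adjusted p = 4.74e-13), with 6.36% of genes called. These bounds depend on the background correction and scaling, and ran from 4.64 to 18.5 for d3 G- and from 48.4 to 236 for d3 G+. Gsc means then stayed at 11.71 ± 0.15 in d4 G+, and at d6 reached 13.52 ± 0.21 in G+H- and 13.32 ± 0.18 in G+H+, the last at least 307-fold above ESCs (145 to 658 under the same alternatives; 10.7% of genes called). The G- cells of d4, at 9.62, 8.82 and 9.47, and of d5, at 8.45, 8.75 and 9.80, were also called against ESCs, with 3.11% and 4.19% of genes called.

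Lhx1, the partner of Ldb cofactors in the organiser, followed Gsc closely but from a measurable start. Its ESC arrays read 5.69, 6.07 and 5.66, all well above background, and its d2 arrays 6.23, 6.03 and 5.55. The d3 G- arrays stood close together at 7.11, 7.38 and 7.28, and the d3 G+ arrays were spread over 9.85, 11.91 and 11.50. The lowest G+ array was still above every G- array. Against ESCs the d3 G+ difference was 5.28 ± 0.47 (38.9-fold; adjusted p = 1.60e-10), while the d3 G- difference of 1.45 ± 0.47 was not called (adjusted p = 0.0469). Lhx1 in d4 G- cells was called (2.45 ± 0.47; adjusted p = 3.46e-04). At d6 the means were 12.89 ± 0.34 in G+H- and 12.90 ± 0.31 in G+H+, both 136-fold above ESCs. These folds depend on the processing as well. Over all alternatives the d3 G+ difference ran from 4.52 to 5.92 and the d6 differences from 6.34 to 7.69, and each stayed called.

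Otx2, the epiblast and head factor, had ESC arrays at 11.47, 9.63 and 10.81, a wider spread than any other member showed in ESCs. The d2 arrays at 11.65, 12.14 and 11.68 lay above all ESC arrays, and the difference of 1.19 ± 0.57 was not called (adjusted p = 0.308; 1.64% of genes called). The d3 G+ arrays at 11.57, 13.38 and 13.13 gave a called difference of 2.05 ± 0.57 (adjusted p = 0.00938), which was lost without ESC replicate 2 or 3 or without d3 G+ replicate 2 or 3 (1.55 to 2.14; adjusted p from 0.0217 to 0.0919) and under 6 other settings (1.68 to 2.05; adjusted p from 0.0101 to 0.0478). It was also lost, at 2.05, without many single arrays of other groups (adjusted p from 0.0101 to 0.0111). The d4 G+ call of 2.36 ± 0.57 (adjusted p = 0.00241; 7.14% of genes called) was lost without ESC replicate 2 (1.86; adjusted p = 0.0339) or d4 G+ replicate 3 (2.17; adjusted p = 0.0168). Otx2 in the 3 G- populations lay between 12.02 and 12.24 on average and none of these was called. Of the untreated groups, those of d6 were the most tightly grouped, at 15.45, 15.42 and 15.56 in G+H- and at 15.62, 15.46 and 15.74 in G+H+. The d6 means stood 28.6-fold and 31.4-fold above ESCs (adjusted p = 3.03e-08 and 1.55e-08).

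Hhex, the ADE marker, stayed near its starting level for 4 days. Its ESC arrays read 8.24, 7.11 and 7.17, and the means of the d2, d3 and d4 populations lay from 7.01 to 7.82. The d3 G+ arrays at 7.03, 8.48 and 7.93 overlapped the ESC arrays. The d5 Ghigh arrays, at 9.71, 10.00 and 11.79, were above every earlier array, by 2.99 ± 0.40 over ESCs (7.95-fold; adjusted p = 4.43e-07; 7.9% of genes called). At d6 Hhex read 12.32, 12.50 and 11.68 in G+H- and 12.52, 12.86 and 12.53 in G+H+, or 25.3-fold and 35-fold above ESCs.

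Hesx1, the Tle-recruiting repressor, came last. It was well above background on 2 of 3 ESC arrays (5.93, 5.35 and 5.42) and on 1 of 3 arrays in each population from d2 to d5 Glow, whose means lay from 4.90 to 5.21. The d5 Ghigh arrays, all 3 above background, read 5.65, 6.22 and 7.79 and overlapped the ESC arrays (0.99 ± 0.37; adjusted p = 0.0544). The d6 arrays read 11.19, 10.71 and 10.31 in G+H- and 11.77, 11.51 and 11.56 in G+H+. Every d6 array was thus above every other untreated array, with folds over ESCs of 35.9 and 66 (adjusted p = 3.17e-13 and 5.94e-15; 9.83% of genes called in the former comparison). Since the earlier values lie at the edge of detection, the folds of Hesx1 may be too small.

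**Figure D2:**
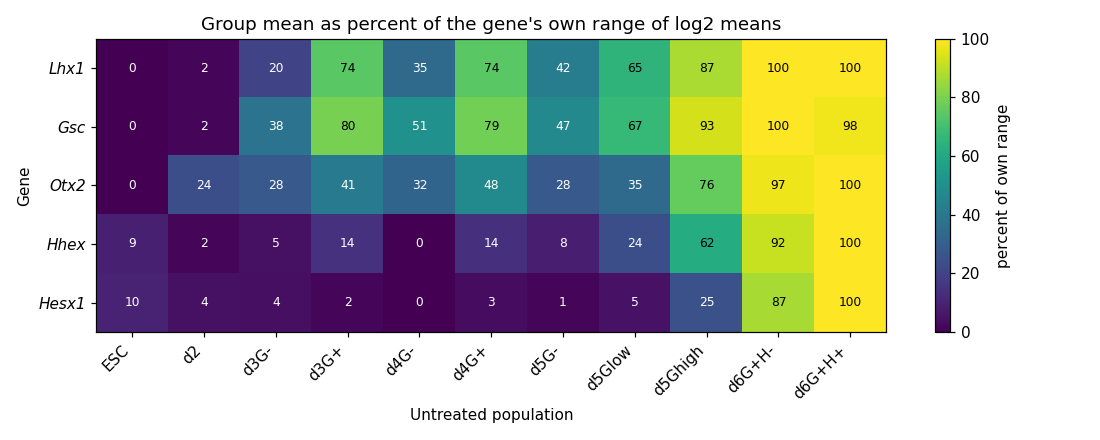
Group mean of each gene (rows) in the 11 untreated populations (columns) as a percent of the gene's own range of log2 means, from 0 in its lowest to 100 in its highest population. At d3 G+ Gsc is at 79.6% and Lhx1 at 74.5% of the range, against 41.3% for Otx2, 14.3% for Hhex and 1.7% for Hesx1.

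Scaled to each gene's own range of log2 means, the order was that of Gsc, Lhx1, Otx2, Hhex and Hesx1 in d3 G+, d4 G+ and every d5 population. It differed at d2, where Otx2 lay at 23.9% against 1.79% for Gsc and 1.9% for Lhx1. It also differed in d3 G-, where Otx2 lay at 27.8% against 20.5% for Lhx1. The ranges of Gsc and Hesx1 start near background and depend on the scaling. The d5 Ghigh value of Gsc lay at 93.4% of its range, that of Lhx1 at 87.3%, Otx2 76.4%, Hhex 62% and Hesx1 24.7%. In d5 Glow cells the figures were 66.9%, 65.2%, 34.7%, 24.1% and 4.72% in the same order of genes. When the populations were ranked by mean, most neighbours were closer than their spread. Gsc in d3 G+ and d4 G+ differed by 0.07 with a pooled SD of 0.33, and Hhex in these 2 populations by 0.03 with a pooled SD of 0.54. Clear gaps, with no overlap of arrays, separated Gsc in d3 G- from d2 (3.11, pooled SD 0.44), Lhx1 in d3 G- from d2 (1.32, pooled SD 0.26) and Hesx1 in d6 G+H- from d5 Ghigh (4.18, pooled SD 0.85).

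Comparing populations sorted on the same day asks how far each gene follows the gate, which was Gsc-GFP from d3 to d5 and Hhex-Redstar at d6. Over the 6 such comparisons, 10 of 30 pairs of member and comparison were called, all higher in the brighter gate, where 1.23% of pairs were called over all genes. As 3 of these calls are Gsc between Gsc-GFP gates, the count without Gsc was 7 of 24. The 24 still include Hhex between the d6 gates, which was not called. At d3, Lhx1 was 14.2-fold higher in G+ than in G- (3.83 ± 0.47; adjusted p = 1.01e-06), in a comparison with 1.75% of genes called. Gsc, as the sort requires, was 11.7-fold higher. The other 3 members were not called at d3: 0.67 ± 0.57 for Otx2, 0.55 ± 0.40 for Hhex and -0.17 ± 0.37 for Hesx1. At d4 Lhx1 was 7.07-fold higher in G+ (2.82 ± 0.47; adjusted p = 1.49e-04; 2.19% of genes called) and Gsc 5.31-fold, a call lost without d4 G- replicate 2 (2.17; adjusted p = 0.013). Hhex read 7.53, 7.85 and 7.99 in d4 G+ and 7.01, 7.00 and 7.02 in d4 G-, and although all 3 G+ arrays were higher the difference of 0.78 ± 0.40 was not called (adjusted p = 0.415). Whether this gap widened or narrowed between d3 and d4 was tested as an interaction, which was not called for any member (-1.14 ± 0.67 for Gsc and -1.01 ± 0.67 for Lhx1), nor for any other gene by limma, with 764 genes at an unadjusted p under 0.05.

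At d5 all 5 members were higher in Ghigh than in G- cells, in every one of the 9 array pairs, in a comparison with 2.47% of genes called. Gsc, as gated, differed by 3.95 ± 0.47. Lhx1 was 9.13-fold higher (3.19 ± 0.47; adjusted p = 2.07e-05), Hhex 8.15-fold (3.03 ± 0.40; adjusted p = 3.76e-06), Otx2 5.3-fold (2.41 ± 0.57; adjusted p = 0.00753) and Hesx1 2.99-fold (1.58 ± 0.37; adjusted p = 0.00582). The Otx2 call was lost without any of 4 arrays, replicate 1 or 2 of G- or replicate 2 or 3 of Ghigh (1.74 to 2.56; adjusted p from 0.0169 to 0.0885), and that of Hesx1 without replicate 1 or 2 of G- or replicate 3 of Ghigh (0.96 to 1.47; adjusted p from 0.0362 to 0.102). The Hesx1 difference depends on the processing and ran from 0.95 to 3.06: its call was also lost with a normexp offset of 50 (0.95; adjusted p = 0.0228), with no background correction (1.20; adjusted p = 0.0107) and with only the untreated arrays in the fit (1.58; adjusted p = 0.0111). That of Otx2 was also lost under 75th percentile scaling (2.48; adjusted p = 0.0134) and with only the untreated arrays (2.41; adjusted p = 0.0237). On the slide that held both populations, slide 1, the differences were 4.13 for Gsc, 3.54 for Lhx1, 3.44 for Otx2, 2.62 for Hhex and 1.63 for Hesx1. With the 6 arrays of these populations alone in the fit none of the 5 was called (adjusted p from 0.0176 for Gsc to 0.301 for Hesx1). Whether the gate difference of Hhex grew from d3 to d5 was tested by limma after the values were seen. It grew by 2.48 ± 0.57 and was not called (adjusted p = 0.0236, with 0.548% of genes called). It passed without d5 Ghigh replicate 1 (2.87, adjusted p = 0.00666) or d5 Glow replicate 3 (2.48, adjusted p = 0.00707). From d4 to d5 it grew by 2.25 ± 0.57 (adjusted p = 0.131, with 0.144% of genes called). The brighter gate holds all G+ cells at d3 and d4 but leaves out Glow cells at d5, so gate and day cannot be told apart here.

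Glow cells stood between the other d5 populations. Against ESCs, Gsc and Lhx1 were called in Glow (7.47% of genes called), while Otx2, at 1.73 ± 0.57, was not, and passed without Glow replicate 1 (2.33; adjusted p = 0.00551). Against G- none of the members was called by limma (0.718% of genes called), although 3 of 5 had an unadjusted p under 0.05, with differences of 1.69 ± 0.47 for Gsc and 1.62 ± 0.47 for Lhx1. Against Glow, Ghigh cells had a called difference only for Hhex (2.13 ± 0.40; adjusted p = 0.00494), where 0.251% of genes were called, and all 5 members had an unadjusted p under 0.05. The Hhex call was lost without Glow replicate 1 (1.79; adjusted p = 0.0619), Glow replicate 2 (1.91; adjusted p = 0.0759) or Ghigh replicate 3 (1.49; adjusted p = 0.0918), and with only the untreated arrays in the fit (2.13; adjusted p = 0.0196) or only those of the compared groups (adjusted p = 0.648). Without Glow replicate 3, Gsc (3.12; adjusted p = 2.81e-05), Otx2 (2.91; adjusted p = 0.00395) and Lhx1 (2.34; adjusted p = 0.00316) passed as well, and Gsc also without Ghigh replicate 1 (2.62; adjusted p = 0.00791), without dim probes (2.26; adjusted p = 0.00997) and with slide as a random block (2.30; adjusted p = 0.00533).

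**Figure D3:**
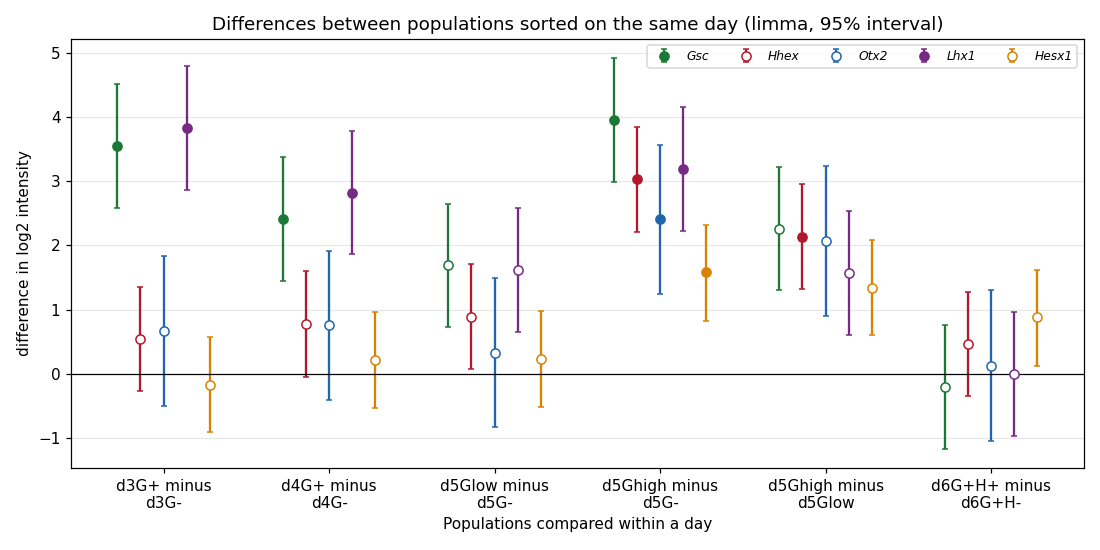
Difference in log2 intensity (vertical axis) of the 5 genes between populations sorted on the same day (horizontal axis), with 95% intervals of the limma fit; filled points were called. Gsc and Lhx1 are called at d3 and d4, all 5 genes between Ghigh and G- at d5, and none between the d6 populations.

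Replicate 3 of d5 stood apart. It was the highest array in 14 of the 15 pairs of member and d5 population. In Glow, for example, Gsc read 9.46, 10.21 and 12.41, Otx2 11.15, 11.90 and 14.04, and Lhx1 9.34, 9.98 and 11.96. Summed over 8 definitive endoderm markers, the log2 level in replicates 1, 2 and 3 was 14.84, 15.00 and 16.20 in Ghigh and 13.29, 13.42 and 14.83 in Glow. Summed over 7 markers of intermediate and lateral mesoderm it was 13.00, 12.53 and 9.64 in Ghigh and 13.65, 13.29 and 11.92 in Glow, so replicate 3 had the highest endoderm and the lowest mesoderm level. The part of this shift in the d5 differences was not tested. Without replicate 3 of all d5 populations, 4 of the 5 calls of Ghigh over G- held (Gsc 3.80, Lhx1 2.82, Otx2 2.59 and Hhex 2.52), while Hesx1 fell below the threshold (1.26; adjusted p = 0.0231).

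The d6 populations differ by the Hhex-Redstar gate, and here none of the 5 genes was called. Hhex itself was 0.47 ± 0.40 higher in G+H+ (95% interval -0.35 to 1.28; adjusted p = 1), in 9 of 9 array pairs. Hesx1 was also higher in 9 of 9 pairs, by 0.88 ± 0.37 (0.13 to 1.62; adjusted p = 0.981). Gsc, Otx2 and Lhx1 differed by -0.20 ± 0.47, 0.13 ± 0.57 and 0.00 ± 0.47. No gene on the array was called by limma between these populations, and 1312 genes had an unadjusted p under 0.05. The threshold of 1.5 lies outside the interval of Hhex and inside that of Hesx1.

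From one day to the next, 8 of 45 pairs of member and comparison were called, all higher on the later day, where 1.58% of pairs were called over all genes. Without Gsc this was 6 of 36. The steps from unsorted d2, from d4 G+ to d5 and from d5 Ghigh to d6 change the gate with the day. In these steps gate and day cannot be told apart. Lhx1 and Gsc made their step from d2 to d3 G+ (5.15 ± 0.47 and 6.66 ± 0.47; 5.58% of genes called), and Gsc was also called from d2 to d3 G- (3.11 ± 0.47; 1.26% of genes called). No member was called among the G- cells from d3 to d4 (0.00898% of genes called) or from d4 to d5 (0.0269%), nor from d4 G+ to d5 Glow (0.13%), where Gsc was called, as lower, only without replicate 3 of d5 (-1.88; adjusted p = 0.00118). From d3 G+ to d4 G+ no member was called (0.0359% of genes called), and the differences ran from -0.07 for Gsc to 0.31 for Otx2. From d4 G+ to d5 Ghigh only Hhex was called (2.71 ± 0.40; adjusted p = 4.87e-05; 1.09% of genes called). Hesx1 differed by 1.45 ± 0.37 (adjusted p = 0.0177) and passed without d5 Ghigh replicate 1 (1.90; adjusted p = 0.00282) and under 75th percentile scaling (3.13; adjusted p = 0.00917). From d5 Ghigh to d6 G+H+, Hesx1 rose 33.3-fold (5.06 ± 0.37; adjusted p = 1.81e-11) and Hhex 4.39-fold (2.14 ± 0.40; adjusted p = 2.34e-04), with 4% of genes called. In G+H- the corresponding differences were 4.18 ± 0.37 and 1.67 ± 0.40 (2.1% of genes called). The call of Hhex in G+H- was lost without replicate 1 or 2 of either population (1.27 to 1.59; adjusted p from 0.0369 to 0.103), under 75th percentile scaling (1.68; adjusted p = 0.0187), with only the untreated arrays in the fit (adjusted p = 0.0172) and with slide as a fixed block (1.51; adjusted p = 0.0143). With only the arrays of the compared groups, the 3 Hhex calls and that of Hesx1 in G+H- were lost (adjusted p from 0.0278 to 0.194). Otx2, with no step large enough to be called between neighbouring days, gained 1.44 ± 0.57 from d4 G+ to d5 Ghigh and 1.17 ± 0.57 from there to d6 G+H+, values that did not pass the test.

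Across the 11 untreated population means, the 5 genes ran together in pairs. The correlation was 0.98 between Gsc and Lhx1 and 0.95 between Hhex and Hesx1, with Otx2 in between (0.93 with Hhex, 0.89 with Lhx1 and 0.87 with Gsc). The lowest was 0.57, between Gsc and Hesx1. All these means share the arrays, the course of differentiation and the sort on Gsc, so the correlations are a description. Among 2968 genes that were above background and moved by at least 2 on the log2 scale, the pattern of Gsc was closest to that of Cyp26a1 (r = 0.989), which encodes a retinoic acid degrading enzyme, then Car15 and Plxna2. Lhx1 was closest to Gata6 (0.99), an endoderm factor, then Tmem198b and Cobll1. For Hhex these were Tph1 (0.996), an enzyme of serotonin synthesis, Pilra and Prkch, and for Hesx1 Angpt2 (0.996), an angiopoietin, Slc13a3 and Akr1c12. Otx2 was closest to Heph (0.98), a copper oxidase of iron transport, Smim13 and Slc16a13.

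Other genes of the same programme were read from lists by role, and their counts stand against 10.7% of all genes called in d6 G+H+ over ESCs and 2.47% in d5 Ghigh over G-. Of 9 genes for the Nodal signal and the factors that act with it, 4 were higher in d6 G+H+ than in ESCs (Foxa2 by 8.29, Cfc1 by 6.45, Eomes by 5.05 and Mixl1 by 2.33 on the log2 scale) and the coreceptor gene Tdgf1 was lower, by -4.68. The list median was 1.46 against 0.00 over all genes. Of 9 antagonist genes of the organiser 7 were higher, with a list median of 4.66. They were led by Cer1 (11.08 ± 0.86), an antagonist of Nodal and BMP. Sfrp5 (9.12 ± 0.41) and Dkk1 (7.42 ± 0.57), both Wnt antagonists, followed. The BMP antagonists Chrd and Nog were not called. In d5 Ghigh against G- cells 6 of the same 9 were higher (list median 2.69). Of 12 genes for protein partners of these factors (the Ldb, Ssbp and Tle families among them), only Tle6 was called in either comparison (2.20 ± 0.35 and 1.62 ± 0.35), and the list medians were 0.26 and 0.05. Of 14 paralogues and related homeobox genes, 5 were higher at d6, among them Rax (6.49 ± 0.45), an eye field factor, and Gsc2 (-1.58 ± 0.38) and Lhx3 (-1.65 ± 0.29) were lower.

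Markers of other tissues that use these genes were not alike at d6, again in a comparison with 10.7% of all genes called. Of 10 anterior neural markers, Rax and Six3 (1.66 ± 0.42) were higher and Pax6 lower in d6 G+H+ than in ESCs (list median 0.05). This list summed to 11.64 to 12.61 in d6 G+H+ and to 9.79 to 9.80 in ESCs, with 6 of 10 genes well above background on all arrays in both, while Pax6 was above background on 1 of 3 d6 G+H+ arrays. Of 7 visceral endoderm markers 3 were higher (Hnf4a, Ttr and Apoa4), and the summed level was 12.89 to 13.42 against 12.59 to 12.64. Such sums add linear intensities, so the brightest genes weigh most. Hnf4a, Ttr, Apoa4 and Afp were not well above background on any ESC array, so the ESC sum came from other genes of the list. Hnf4a went from 4.74 ± 0.58 to 11.39 ± 0.45 and Ttr from 4.67 ± 0.16 to 8.97 ± 1.03. Afp, another gene of this list, was not well above background on any array of d6 G+H+ or G+H-. Of 8 definitive endoderm markers 7 were higher (list median 6.71), with summed levels of 16.62 to 16.77 against 10.51 to 11.16. Of 7 naive pluripotency markers 5 were lower (list median -4.44). Of 6 epiblast markers 3 were higher and 3 lower. Tbx6 (1.70 ± 0.38) was the only gene called among 7 mesoderm markers, Gata1 (4.03 ± 0.35) among 7 haemato-vascular markers and Foxa2 among 6 axial mesendoderm markers, each of them higher. The part of these cell types in the levels of the 5 genes was not tested.

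The EPZ6438 series asks how the genes respond when EZH2 is inhibited during differentiation or beforehand. Of the 15 pairs of member and comparison in it 3 were called, all higher under EPZ6438, where 1.06% of pairs were called over all genes. In ADE_EPZ cells Hhex was 4.71-fold and Hesx1 6.24-fold above Control, and both were called, in a comparison with 2.65% of genes called. All 5 genes were higher in 9 of 9 array pairs. Hhex read 10.01, 10.52 and 9.79 in Control and 12.21, 12.38 and 12.43 in ADE_EPZ (2.23 ± 0.40; adjusted p = 2.17e-04). Hesx1 read 8.64, 9.16 and 7.95 in Control and 11.52, 11.09 and 11.06 in ADE_EPZ (2.64 ± 0.37; adjusted p = 8.51e-06). In both genes every treated array lay above every Control array, by more than 1. The Hesx1 call was lost, at a similar difference, with the signal scaled to its 75th percentile (2.69; adjusted p = 0.0117). Lhx1 went from 10.51, 11.16 and 10.52 to 11.63, 12.05 and 12.67 (1.39 ± 0.47; adjusted p = 0.055). Otx2 went from 14, 14.34 and 14.09 to 15.23, 15.25 and 15.43 (1.16 ± 0.57; adjusted p = 0.251). Gsc went from 11.64, 12.22 and 12.06 to 12.66, 12.81 and 13.43 (0.99 ± 0.47; adjusted p = 0.225). None of these last 3 was called, although their arrays did not overlap either.

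With EPZ6438 on the ESCs alone, Hesx1 was the only member called at d6. In ES_EPZ, Hesx1 read 10.92, 10.52 and 10.69 and was called against Control (4.37-fold; 2.13 ± 0.37; adjusted p = 0.00157), where 0.404% of genes were called. The call was lost without Control replicate 3 (1.81; adjusted p = 0.0293), ES_EPZ replicate 1 (2.02; adjusted p = 0.0146) or ES_EPZ replicate 3 (2.14; adjusted p = 0.0184), with only the arrays of this series in the fit (2.13; adjusted p = 0.0113) and with the signal scaled to its 75th percentile (2.23; adjusted p = 0.123). Hhex, at 11.46, 11.49 and 11.99, was above every Control array and was not called (1.54 ± 0.40; adjusted p = 0.0356). It passed when d5 Ghigh replicate 3, an array outside this comparison that enters the shared spread, was left out (adjusted p = 0.00913). Lhx1, Otx2 and Gsc differed by 1.32 ± 0.47, 0.84 ± 0.57 and 0.79 ± 0.47. The regimens share the Control arrays. Compared directly, ADE_EPZ and ES_EPZ differed in none of the 5 genes by limma (0.121% of genes called; no member at an unadjusted p under 0.05), with 0.69 ± 0.40 for Hhex (-0.12 to 1.51) and 0.51 ± 0.37 for Hesx1 (-0.23 to 1.26). A response of the same size in both regimens is not shown by this.

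**Figure D4:**
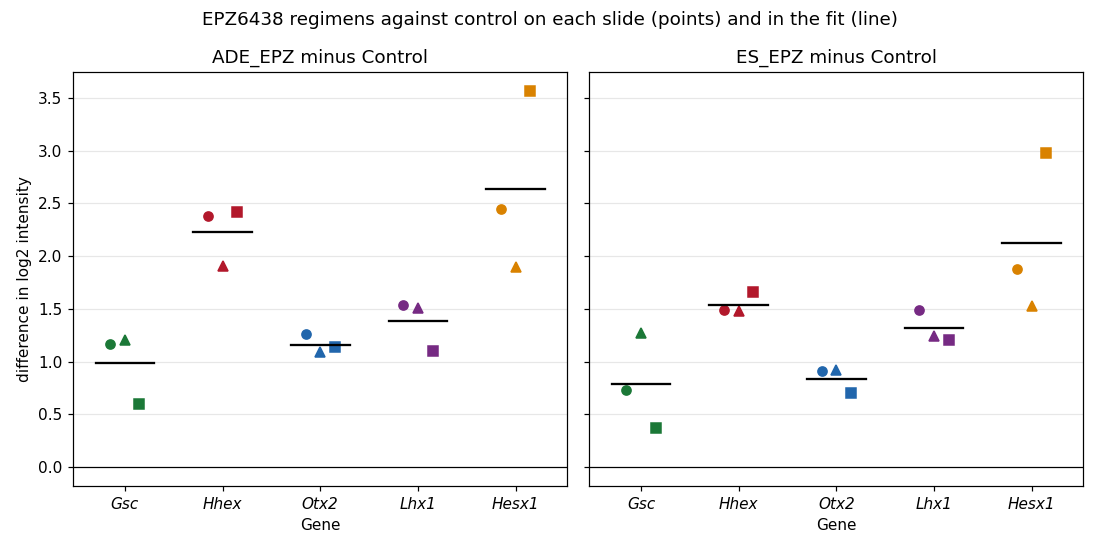
Difference in log2 intensity from Control (vertical axis) of the 5 genes (horizontal axis) for ADE_EPZ and ES_EPZ; points are the differences on each of the 3 slides and the line is that of the limma fit. All points lie above 0, and those of Hesx1 in ADE_EPZ run from 1.90 to 3.57.

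Each slide of this series held 1 array of each regimen, so the differences can be read within slides. All 30 were above 0. For ADE_EPZ over Control those of Hhex were 2.38, 1.91 and 2.42 on slides 6, 7 and 8, and those of Hesx1 2.45, 1.90 and 3.57. For ES_EPZ, Hesx1 differed by 1.88, 1.53 and 2.98 on the same slides. Slide 8 gave the largest difference of Hesx1 in both regimens, which share its Control array at 7.95. The promoter of Hesx1 is the CpG-poor one of those printed above and that of Hhex the CpG-richest, so the 2 genes called in ADE_EPZ lie at opposite ends of the set in CpG count. Whether CpG content bears on these responses was not tested, and no histone mark was read here.

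The companion lists in ADE_EPZ are read against 2.65% of all genes called. Of the 9 antagonist genes, Shisa2 (2.04 ± 0.35), Sfrp1 (1.78 ± 0.38) and Sfrp5 (1.61 ± 0.41) were higher, and the list median was 1.61 against -0.01 over all genes. Cer1 was at 2.42 ± 0.86 and not called (adjusted p = 0.0697). Of the 9 Nodal pathway genes, only Mixl1, a streak homeobox gene, was called, and it was lower (-3.34 ± 0.34; adjusted p = 1.24e-07), with a list median of -0.46. Among the 14 related homeobox genes Rax, which is also an anterior neural marker, was higher (3.05 ± 0.45). Of the 12 partner genes only Ldb2, a cofactor of LIM factors such as Lhx1, was called, as lower (-1.65 ± 0.27). Of the 8 definitive endoderm markers none was called by limma (list median 0.76), nor were any of 6 epiblast, 7 mesoderm and 6 axial mesendoderm markers (medians 0.41, -0.34 and 0.00). Of 7 naive pluripotency markers Tfcp2l1 (2.11 ± 0.35) and Zfp42 (1.51 ± 0.34) were higher and Tbx3 lower (-3.34 ± 0.71), Rhox5 (1.84 ± 0.41) was higher among 7 visceral endoderm markers, and Etv2 (-2.20 ± 0.39) lower among 7 haemato-vascular ones.

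The summed levels of 5 lists of cell type markers stand beside these differences as a description, with no test. In each sum the brightest genes of the list weigh most. In ADE_EPZ the range lay outside that of Control for each of the 5 lists, whereas ES_EPZ overlapped Control for the mesoderm and haemato-vascular lists. The summed definitive endoderm level was 14.87 to 15.20 in Control, 15.96 to 16.38 in ADE_EPZ and 15.75 to 16.28 in ES_EPZ. The summed mesoderm level was 10.70 to 11.29, 9.52 to 10.36 and 9.45 to 10.82 in the same order, with 4 of 7 genes well above background on all arrays of each regimen. That of the anterior neural list was 10.19 to 10.49, 11.44 to 11.97 and 10.98 to 11.63, with 5 of 10 genes above background on all arrays of each, and Pax6 on 1 array of Control and on none of the others. That of the visceral endoderm list was 12.24 to 12.58, 13.37 to 13.82 and 12.90 to 13.10, with 6, 7 and 5 of 7 genes above background on all arrays. Only Rhox5 of that list was called in ADE_EPZ, as higher. Hnf4a read 11.35 ± 0.14 in Control and 11.81 ± 0.53 in ADE_EPZ. In the same order Ttr read 6.99 ± 0.96 and 7.81 ± 0.88, and Apoa4 6.36 ± 0.20 and 6.47 ± 0.18. Afp was above background on all 3 arrays of Control (6.26 ± 0.28) and of ADE_EPZ (5.92 ± 0.37) and on 1 of ES_EPZ (4.96 ± 0.39). The summed haemato-vascular level was 11.85 to 12.12 in Control, 11.61 to 11.69 in ADE_EPZ and 11.96 to 12.25 in ES_EPZ, with 5, 6 and 5 of 7 genes above background on all arrays. The part of these cell types in the differences of Hhex and Hesx1 was not tested.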

How the data were processed

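Cy3-labelled cRNA made from total RNA was read on Agilent one-colour mouse arrays. The authors deposited the scanner intensity files and a table of log2 intensity, made with limma by normexp background correction (offset 10) and quantile normalisation across all arrays. These deposited log2 values were used, averaged over spots of a probe, and they correlated at 0.999979 or more with values recomputed from the deposited intensity on each array. Probes were matched by RefSeq accession; the table of GRCm38.p6 names held 21865 of 23171 accessions. The annotation printed with the spots differed between the scanner files of the 2 series for 4470 spots, none of them a member, and that of the untreated series was used.

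limma 3.58.1 in R 4.3.3 was fitted with 1 mean per group over all 42 arrays, and p values were adjusted by Benjamini-Hochberg over 55681 probes for each comparison. Calls needed an adjusted p no higher than 0.01 and a log2 difference of at least 1.5 in size. Percentages of genes called rest on the brightest probe of each of 22278 genes. "At least" folds take, on each array of the dim group, the higher of its own value and that of the dimmest probe well above background. Replicates are stated to be independent experiments, and 3 against 3 arrays allow no permutation p under 0.1, so no such test was run. Named genes are the 5 members, genes of the lists, and for each member the 3 genes with the highest correlation. Members and lists were chosen with earlier results of these data known. Alternatives covered background correction, scaling, probe filter, blocks, the arrays fitted and each array left out. Fits were tested on simulated data, and the number of arrays limits the precision. Some list genes are not reported by name here.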

Additional observations from a re-analysis of the deposited data

How the results depend on the processing

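Of the 48 called pairs of member and comparison, 33 kept their call under every alternative and with any of the 42 arrays left out, 13 lost it under at least 1 alternative, 8 with an array left out, and 0 reversed. A further 8 pairs, not called otherwise, passed under an alternative or with an array left out. With the arrays of the compared groups alone, 4 pairs of member and comparison within days, 4 between successive days and 6 list genes in d5 Ghigh against G- were called, against 10, 8 and 25; that fit has fewer samples. Scaling the processed signal to its 75th percentile left 1 call under EPZ6438, Hhex in ADE_EPZ, and lost Hesx1 in ADE_EPZ (2.69; adjusted p = 0.0117) and in ES_EPZ (2.23; adjusted p = 0.123); it moved the range of group means to 10.46 for Gsc and 8.81 for Hesx1, against 8.56 and 6.72, and the cause was not tested. Slide as a random block gave 1 called change of the gate difference to d5, Hhex (2.52; adjusted p = 0.00922), where 0 were called. The comparisons with ESCs gave 26 to 28 calls under all alternatives.

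Leaving out each array in turn gave 25 to 28 calls against ESCs, 7 to 13 within days, 7 to 8 between successive days, 2 to 4 under EPZ6438, 0 in every case for the change of the gate difference from d3 to d4, and 0 to 1 for its change to d5. The list genes called ranged from 37 to 43 in d6 G+H+ against ESCs, 19 to 26 in d5 Ghigh against G- and 8 to 13 in ADE_EPZ against Control.

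The replicate number as a block gave 28, 11, 8 and 3 calls in the 4 sets of comparisons (27, 10, 8 and 3 without it) and added Gsc in d5 Ghigh against Glow and Otx2 in d5 Glow against ESCs. Same-numbered arrays correlated at -0.116 to 0.707 in the untreated series and at -0.0557 to 0.398 in the EPZ6438 series. All pairs were over 0.1 in 10 of 25 and 1 of 3 comparisons, so the numbers were not taken as pairs. As a hint from the data, 24 of 33 and 8 of 9 arrays were closest to their own number, and slides 3 and 5 held replicate 3 alone. Another probe could not be tried, since each member has 1. Slide as a fixed block and the fits without replicate 3 of d5 were chosen after seeing the data. Hesx1 near background limits its folds up to d5.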
